A study of Mus musculus with 5 samples.

Results

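The autophagy machinery comprises the proteins that build a double-membraned vesicle, the autophagosome, around cytoplasm, and 39 of its genes were followed here through the transcriptome of mouse peritoneal macrophages. They were picked by name for their roles, and the rule that lists them uses no measured value, although earlier results of these data were known when the list was drawn up. Of the 39 symbols, 37 occurred among the 38463 symbols of the table, and all 37 reached the level needed for testing, 1 FPKM in at least 2 libraries, as did 12214 genes in all. Map1lc3b and Atg101 were not found under those symbols. FPKM, a read density scaled both to transcript length and to the size of the library, allows levels to be compared between genes.

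The study compared peritoneal macrophages, phagocytes of the mouse abdominal cavity, with and without Nrp1, which encodes the co-receptor neuropilin 1. The wild-type group had 3 libraries from mice whose strain is labelled C7/BL6. The knockout group had 2 libraries from LysMCre-Nrp1fl/fl mice, genotype Nrp1-/-, in which Cre recombinase driven by the lysozyme M promoter removes the floxed gene in myeloid cells. All cells were kept in F12 DMEM with 10% FBS. The labels give no age, sex or number of animals, and they do not say that the wild-type mice carried the floxed gene or Cre.

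In textbook outline, a kinase complex around ULK1 or ULK2 starts autophagy when nutrients are scarce, and a class III PI3-kinase complex then marks the growing membrane with PI3P. Lipid transfer proteins feed that membrane while a pair of ubiquitin-like systems attaches ATG12 to ATG5 and ATG8 proteins (the LC3 and GABARAP families) to lipid. Receptors such as p62 bind both cargo and ATG8 proteins, and SNARE proteins fuse the closed vesicle with the lysosome. In macrophages the same conjugation machinery also acts in the destruction of bacteria and in LC3-associated phagocytosis.

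Nrp1 transcripts stood at 24.3, 19.0 and 11.5 FPKM in wild-type cells (replicates 1, 2 and 3) and 7.63 and 7.70 FPKM in the knockout (replicates 1 and 2), an order kept for all values below. Both knockout libraries were lower than all 3 wild-type libraries, although the difference of -1.09 ± 0.32 (SE) on the log2(FPKM + 1) scale did not pass (limma adjusted p = 0.927). Without wild-type replicate 3 it was -1.37 and did not pass either. Library sums ranged from 539101 to 629135 FPKM, and 11014 to 12020 genes had at least 1 FPKM. Wild-type replicate 3 had the highest sum and the fewest such genes, and its value lay outside the range of the other 4 libraries for 75.6% of tested genes, against 31.3%, 30.4%, 28.6% and 33% for wild-type replicates 1 and 2 and knockout replicates 1 and 2. Results are therefore given with and without it. The 6 macrophage markers summed to 2128 to 3584 FPKM in the wild-type group, against 2344 to 2494. The 4 B cell markers summed to at most 2.78 FPKM in any library, the 3 dendritic cell markers to at most 1.64 and the 3 T cell markers to at most 0.0857, while both eosinophil markers and the neutrophil genes Ly6g and Retnlg were listed at 0 throughout. The 5 mast cell markers summed to 16.1, 21.7 and 176 FPKM in wild-type libraries, against 33.9 and 18.1 in the knockout. The 8 mesothelial and fibroblast markers summed to 59.3, 56.6 and 25.0 against 30.9 and 24.0, with the mesothelial genes Msln and Upk3b under 1 FPKM in all libraries. The 4 neutrophil markers summed to 64.6, 22.6 and 72.6 against 43.3 and 58.0 FPKM, nearly all of it S100a8. No marker gene that reached the level for testing passed, and the part of mast or stromal cells in the values below was not tested. In such bulk samples fewer cells of a type and less RNA per cell cannot be told apart.

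None of the 37 autophagy members passed the test in either direction. Their adjusted p from limma ran from 0.927 to 0.997, and 0 of 37 had an unadjusted p under 0.05, where 1.82% of all tested genes did. Among all genes tested 0.0409% were called higher and 0.0164% lower in the knockout. Differences among the members ran from -0.40 for Map1lc3a to 0.67 for Atg12, with a median absolute difference of 0.18 against 0.21 over all tested genes. The 95% confidence interval stayed within a 2-fold change of FPKM + 1 in either direction for 30 of the 37 members. For low genes that limit allows a larger change in FPKM itself. The 7 with wider intervals were Rb1cc1, Atg2b, Wipi2, Vmp1, Atg12, Atg16l1 and Map1lc3a. Without wild-type replicate 3 all 37 intervals stayed within 2-fold of FPKM + 1. The differences then ran from -0.29 to 0.31, and their median absolute size was 0.07 against 0.13 over all genes. Again 0 of 37 had an unadjusted p under 0.05, where 4.27% of all genes did, and 0 passed after adjustment (0.0495% of genes called higher, 0.0247% lower).

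**Figure D1:**
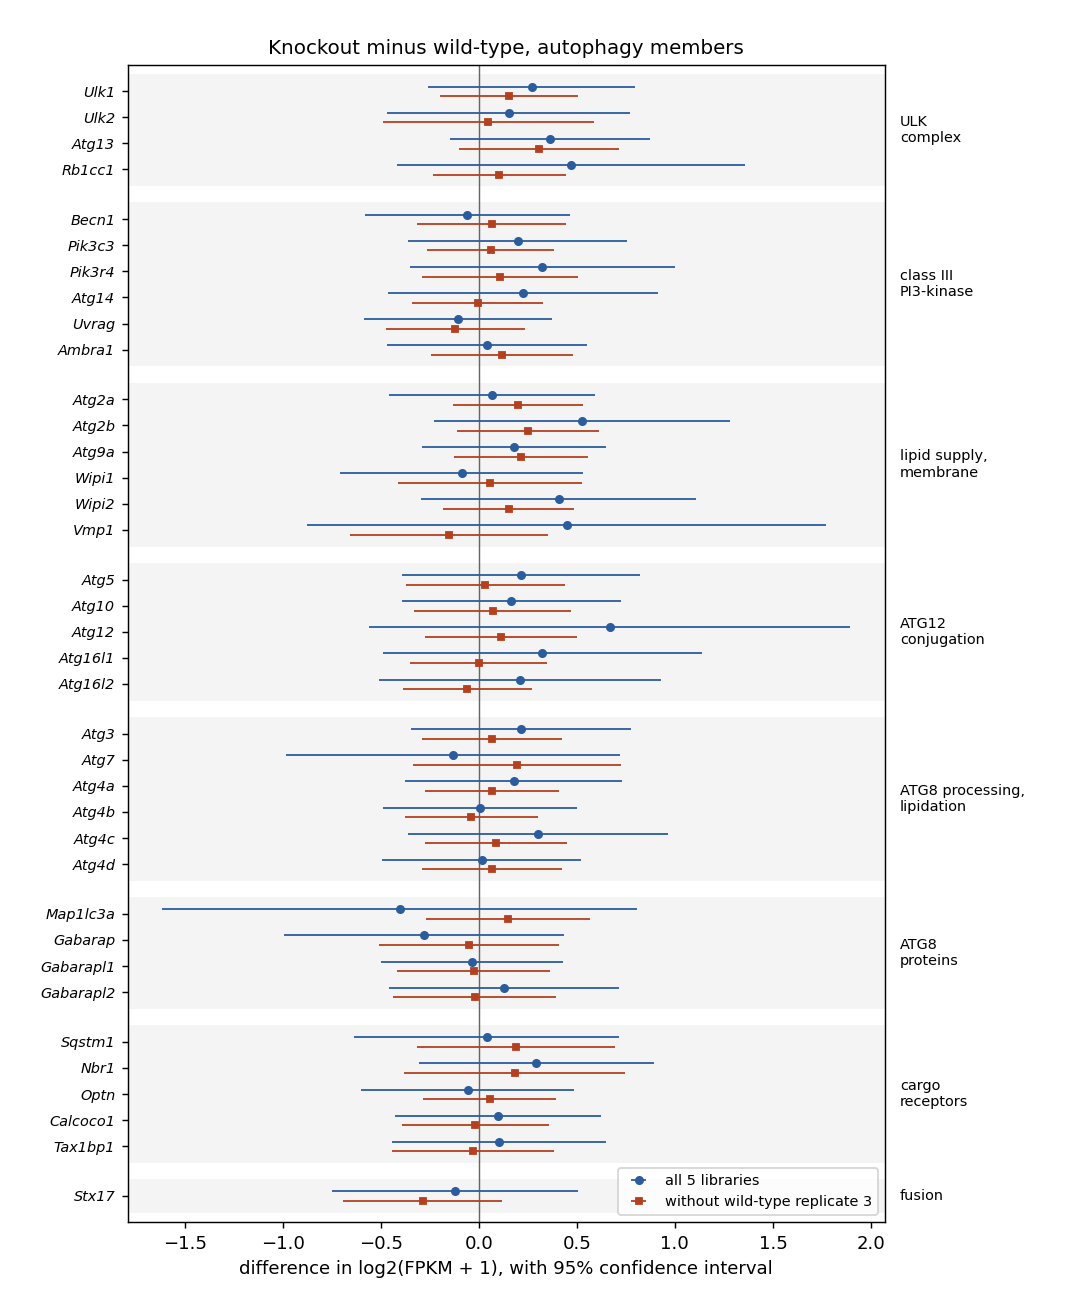
Difference between knockout and wild-type means in log2(FPKM + 1) for each of the 37 autophagy members, grouped by role, with the 95% confidence interval from limma, for all 5 libraries (blue circles) and without wild-type replicate 3 (red squares). Every interval crosses 0, and all 37 lie within 1 log2 unit of 0 once wild-type replicate 3 is left out.

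In 7 members both knockout libraries were above all 3 wild-type libraries, and in 0 members both were below. These 7 are 18.9% of the members, beside 13.9% of all tested genes with the knockout above and 6.95% with it below, that is, 20.8% with no overlap in either direction. They were Ulk1, Atg13 and Rb1cc1 of the 4 ULK complex members, Pik3c3 of the 6 PI3-kinase members, and Atg2b, Atg9a and Wipi2 of the 6 lipid supply and membrane members. None belonged to the conjugation systems, the ATG8 proteins, the receptors or fusion. Of the members 28 of 37 (75.7%) had a positive difference, as did 63.9% of all genes, and the members' median of 0.17 was 0.06 above the median of all genes, 0.11. Scaling moved these counts. The positive differences numbered 31 with libraries rescaled to equal sums, 21 under median-of-ratios scaling and 25 under quantile normalization, and the median of all genes was 0.17, 0.0019 and -0.0039 in turn. Median-of-ratios scaling left 4 members with the knockout above, namely Ulk1, Rb1cc1, Atg2b and Wipi2. Without wild-type replicate 3 the knockout was above in 8 members and below in 1 (17.2% and 15.2% of all genes), and 25 of 37 differences (67.6%) were positive, as were 53.4% of all genes.

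The members covered a wide range of abundance. Mean FPKM over the 5 libraries ran from 2.41 for Atg2b to 776 for Sqstm1, with a median of 13.0 against 8.96 for all tested genes, and 28 of 37 members lay above that gene median. Gabarap and Sqstm1 alone made up 57.6%, 61.2% and 68.3% of the members' summed FPKM in wild-type libraries, against 61.2% and 59.5% in the knockout. Gabarap encodes an ATG8 protein and Sqstm1 a cargo receptor. Relatives in the same classes were much less abundant, such as Gabarapl2 with a mean of 14.3 FPKM and Optn with 7.71. Exon bases of 13 members are shared with another annotated gene, for example those of Becn1 with Cntd1, Sqstm1 with Mrnip and Atg2b with Gskip on the opposite strand. Whether strand was used in counting is not given in the sources used here, so reads of such pairs cannot be told apart.

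**Figure D2:**
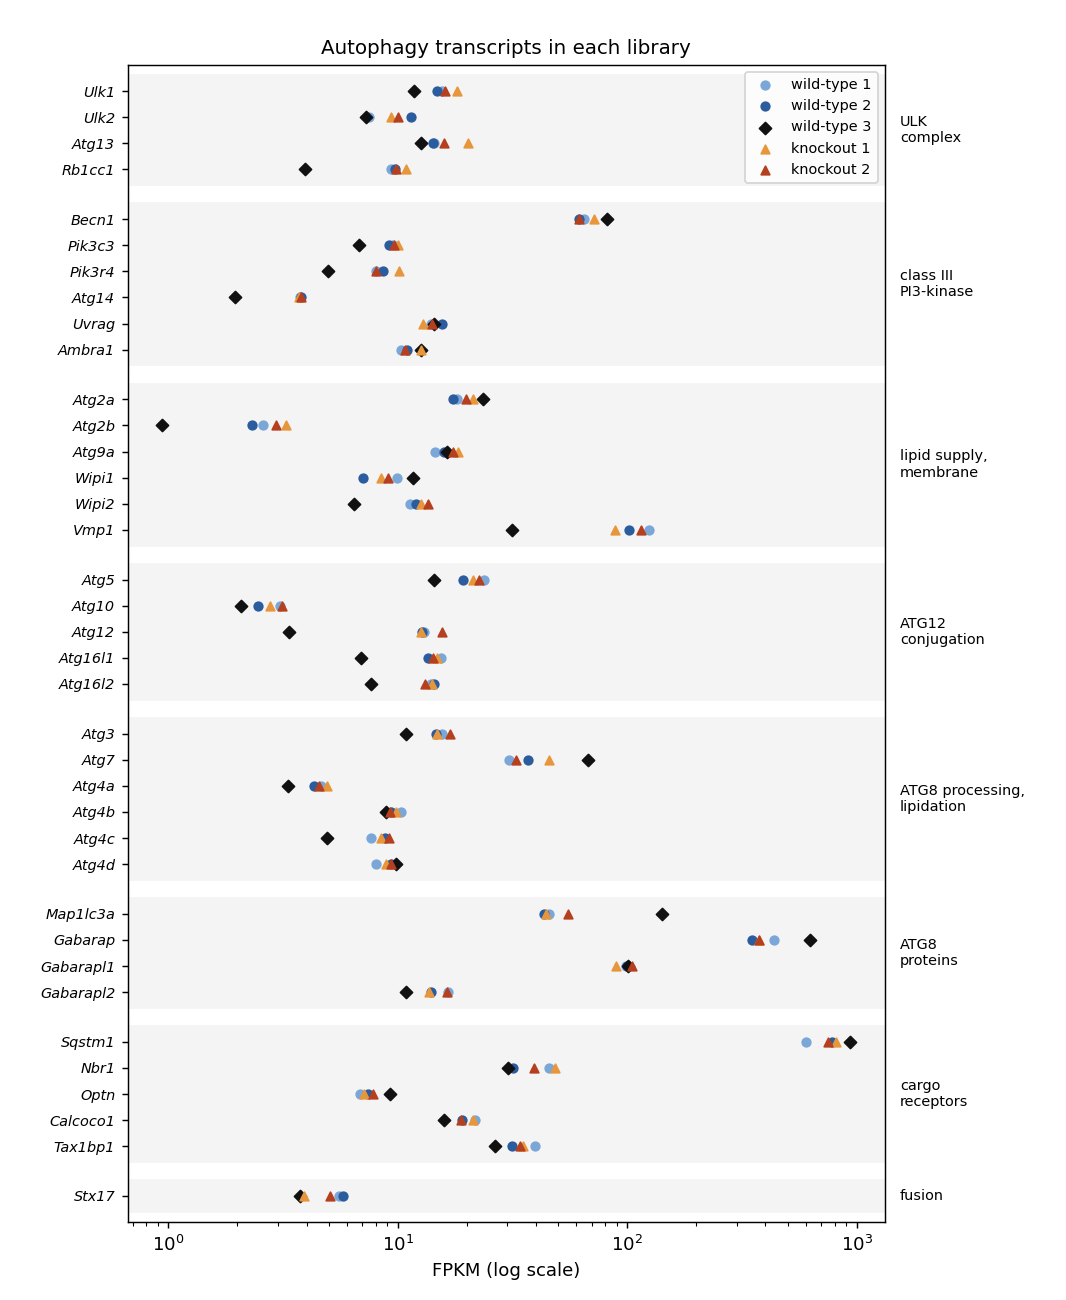
FPKM (log axis) of each of the 37 autophagy members in each of the 5 libraries, grouped by role; circles and the black diamond are wild-type replicates 1 to 3, triangles are knockout replicates 1 and 2. Levels run from under 1 FPKM for Atg2b in wild-type replicate 3 to 938 FPKM for Sqstm1, and the black diamond of wild-type replicate 3 stands apart in most rows while the other 4 libraries lie close together.

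The ULK complex receives the starvation signal. All 4 of its tested members had positive differences with all libraries and under every alternative tried, and none passed the test. Ulk1, the starting kinase (chromosome 5 at 110784488 to 110810097, GRCm38), stood at 15.6, 14.8 and 11.7 FPKM in wild-type libraries, against 18.1 and 16.0 in the knockout. Atg13, which tethers the kinase to its scaffold (chromosome 2 at 91674618 to 91710576), stood at 14.4, 14.2 and 12.6 against 20.2 and 15.9 FPKM, with knockout replicate 1 the highest. Rb1cc1, the FIP200 scaffold of the complex (chromosome 1 at 6206197 to 6276648), stood at 9.33, 9.73 and 3.92 against 10.9 and 9.81 FPKM. For all 3 genes the groups did not overlap, with the knockout above, as for 13.9% of all tested genes. The gap was narrow for Rb1cc1 and Ulk1, where knockout replicate 2 stood just above the highest wild-type library. The longest coding Rb1cc1 transcript shares 8.5% of its 50-base stretches with Gm13961. The log2 differences were 0.27 ± 0.22 for Ulk1, 0.36 ± 0.21 for Atg13 and 0.47 ± 0.37 for Rb1cc1 (SE). In limma Atg13 had the lowest unadjusted p of all members, 0.134, and an adjusted p of 0.927. Without wild-type replicate 3, in which all 3 genes were lowest, the same differences were 0.15, 0.31 and 0.11. Ulk2, the second kinase, overlapped between the groups, at 7.28 to 11.5 FPKM. The ratio of Ulk1 to Ulk2 was 2.09, 1.29 and 1.61 in wild-type and 1.95 and 1.60 in knockout libraries, so the wild-type libraries alone spanned both knockout values. The symbol 9430023L20Rik, which RefSeq lists as an older name of Atg101, a stabiliser of ATG13, stood at 27.3, 30.2 and 40.1 against 27.6 and 29.1 FPKM. Its difference was -0.18 ± 0.23 (SE), and it was looked up after the members' values were seen.

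Among the 6 tested members of the class III PI3-kinase complex, 4 had positive differences (5 with libraries rescaled to equal sums, 3 under the other scalings) and none passed. Becn1, the Beclin 1 subunit and the most abundant of them (chromosome 11 at 101285952 to 101302286), stood at 64.5, 61.8 and 81.9 FPKM in wild-type libraries, against 71.2 and 61.3 in the knockout. The groups overlapped, and the difference of -0.06 ± 0.22 became 0.07 without wild-type replicate 3. Pik3c3, the catalytic subunit VPS34 (chromosome 18 at 30272747 to 30348126), stood at 9.55, 9.12 and 6.78 against 9.99 and 9.58 FPKM. The lower knockout library exceeded the highest wild-type library by a few hundredths of 1 FPKM, so the groups separated by far less than wild-type replicate 3 lay below its own group. Atg14, which steers the complex to sites of autophagosome formation, was the least abundant of the complex, at 3.76, 3.77 and 1.95 against 3.73 and 3.77 FPKM. Apart from wild-type replicate 3 its 4 libraries were almost equal, with a difference of -0.01 between them and 0.23 ± 0.29 over all 5. Pik3r4, the regulatory subunit VPS15, ranged over 4.97 to 10.1 FPKM, Uvrag, which replaces ATG14 in the endosomal form of the complex, over 12.9 to 15.6 and Ambra1, a regulator of Beclin 1, over 10.3 to 12.6. All 3 overlapped between the groups.

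Of the 6 members that supply lipid or shape the young membrane, 5 had positive differences (4 under median-of-ratios scaling). In 3 the groups did not overlap, with the knockout above, as for 13.9% of all tested genes. Atg2b, a lipid transfer protein (chromosome 12 at 105616136 to 105685211), stood at 2.58, 2.32 and 0.941 FPKM in wild-type libraries, against 3.26 and 2.95 in the knockout. Its difference of 0.53 ± 0.32 (SE) did not pass (limma adjusted p = 0.927) and fell to 0.25 without wild-type replicate 3, the single library in which it was under 1 FPKM. Its paralog Atg2a was several times more abundant, at 18.2, 17.3 and 23.6 against 21.1 and 19.9 FPKM, and overlapped between the groups. Wild-type replicate 3 was the lowest library for Atg2b and the highest for Atg2a. The ratio of Atg2a to Atg2b was thus 7.05, 7.46 and 25.1 in wild-type and 6.49 and 6.74 in knockout libraries, a contrast picked out after the values were seen. Atg9a, the transmembrane scramblase of the seed vesicles (chromosome 1 at 75180860 to 75192196), stood at 14.5, 16.0 and 16.4 against 18.4 and 17.3 FPKM. Its wild-type libraries lay close together, and the difference was 0.18 ± 0.20 with all libraries and 0.21 without wild-type replicate 3. A transcript annotated on the same strand, Gm29253, shares 41.6% of the 50-base stretches of the longest coding Atg9a transcript, so its reads can be split. Wipi2, the PI3P reader that recruits ATG16L1 (chromosome 5 at 142627698 to 142670588), stood at 11.3, 12.0 and 6.46 against 12.6 and 13.6 FPKM, a difference of 0.41 ± 0.30 that became 0.15 without wild-type replicate 3. Its relative Wipi1 overlapped, at 7.04 to 11.6 FPKM. Vmp1, an endoplasmic reticulum scramblase (chromosome 11 at 86583865 to 86683836), was the most abundant of the 6, at 124, 102 and 31.4 against 88.4 and 115 FPKM. Knockout replicate 1 lay below the first 2 wild-type libraries and above the third, and the difference of 0.45 ± 0.56 turned to -0.15 without wild-type replicate 3. Vmp1 shares exon bases with Mir21a on the same strand.

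The 300-base promoter windows of RefSeq (250 bases before to 50 after a start site, GRCm38.p6) were searched for the letters CACGTG on both strands, the E-box at the heart of the element bound by TFEB, a transcription factor known to drive autophagy and lysosomal genes. Windows were given for 33 of the 39 members, 39 windows in all. The E-box letters occurred in 4 of them (10.3%), against 7.15% of all 32851 windows, so the members' share was close to that of promoters at large. The 4 windows belonged to genes of the conjugation systems and of the PI3-kinase complex. They are shown so that the position of the E-box, in capitals, can be set beside each gene's values. Atg3 is at chr16:45158579-45158878 on the plus strand, Atg5 at chr10:44268089-44268388 on the plus strand, Atg7 at chr6:114670846-114671145 on the plus strand and Atg14 at chr14:47568385-47568684 on the minus strand. The start sites of the Atg3, Atg7 and Atg14 windows lie inside the genes as GENCODE annotates them. The Atg3 window still spans the annotated gene start, 45158785. Those of Atg7 and Atg14 lie wholly inside the outermost annotated bounds of their genes, which start at 114643097 and 47570649. Whether they are the main start sites of these genes was not tested.
Atg3: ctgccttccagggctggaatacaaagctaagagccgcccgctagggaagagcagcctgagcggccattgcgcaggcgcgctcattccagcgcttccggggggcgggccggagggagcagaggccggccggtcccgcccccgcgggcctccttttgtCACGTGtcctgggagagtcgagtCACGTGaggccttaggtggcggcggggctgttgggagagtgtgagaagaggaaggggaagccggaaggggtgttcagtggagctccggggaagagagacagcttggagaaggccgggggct
Atg5: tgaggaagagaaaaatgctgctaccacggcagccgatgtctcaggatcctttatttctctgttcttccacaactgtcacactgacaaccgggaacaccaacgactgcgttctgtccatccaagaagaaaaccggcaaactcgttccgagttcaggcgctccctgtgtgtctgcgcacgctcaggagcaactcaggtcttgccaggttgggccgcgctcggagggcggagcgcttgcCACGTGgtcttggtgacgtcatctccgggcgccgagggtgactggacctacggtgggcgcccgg
Atg7: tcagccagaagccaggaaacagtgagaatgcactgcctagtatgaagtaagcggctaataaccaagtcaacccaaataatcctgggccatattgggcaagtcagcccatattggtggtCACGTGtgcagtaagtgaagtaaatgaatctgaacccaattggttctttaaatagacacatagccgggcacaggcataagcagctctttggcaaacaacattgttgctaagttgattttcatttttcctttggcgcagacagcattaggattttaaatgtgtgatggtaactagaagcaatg
Atg14: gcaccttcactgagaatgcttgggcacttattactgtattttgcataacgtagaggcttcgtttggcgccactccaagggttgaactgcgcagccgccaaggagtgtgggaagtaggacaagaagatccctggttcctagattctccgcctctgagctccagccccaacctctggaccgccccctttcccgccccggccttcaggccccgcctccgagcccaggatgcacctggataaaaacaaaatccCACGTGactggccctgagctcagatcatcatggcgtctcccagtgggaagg

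Atg3 holds 2 of these hexamers, 94 and 71 bases before the start, and the second of them lies in the longer palindrome TCACGTGA, which 0.974% of all windows contain. In Atg5 the E-box begins 14 bases, in Atg7 132 bases and in Atg14 1 base before the start. None of the 4 genes passed the test, and their differences were 0.21, 0.21, -0.13 and 0.23 in that order (0.07, 0.03, 0.20 and -0.01 without wild-type replicate 3). The letters TGACNNNGC of the antioxidant response element occurred in 17.9% of member windows, those of Atg13, Map1lc3b, Tax1bp1, Ulk2 and Vmp1, against 12.4% of all windows. The forkhead letters GTAAACA occurred in 0 member windows against 3.65% of all. Both were searched on both strands, and a match describes the letters only.

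The 5 members of the ATG12 conjugation system all had positive differences over all libraries and under every scaling, and none passed. Without wild-type replicate 3 that count was 3 of 5, and with library weights it was 2 of 5. Atg5, which receives ATG12 (chromosome 10 at 44268358 to 44364291), was the most abundant, at 23.8, 19.1 and 14.3 FPKM in wild-type libraries, against 21.2 and 22.6 in the knockout. The knockout values lay between wild-type replicates 1 and 2, and the difference was 0.21 ± 0.26. Atg10, the E2-like enzyme of the reaction, was the least abundant, at 3.07, 2.47 and 2.07 against 2.76 and 3.13 FPKM, and also overlapped. Atg12, the ubiquitin-like protein itself (chromosome 18 at 46730144 to 46741580), showed the largest difference of any member, 0.67 ± 0.52 (SE, limma adjusted p = 0.927). Its levels overlapped, at 13.0, 12.7 and 3.37 against 12.6 and 15.5 FPKM, and without wild-type replicate 3 the difference was 0.11. The low value of that one library therefore carried most of it. The ratio of Atg5 to Atg12 transcripts was 1.84, 1.51 and 4.26 in wild-type and 1.69 and 1.46 in knockout libraries. Atg16l1, which places the conjugate on the membrane, ranged over 6.88 to 15.5 FPKM and its paralog Atg16l2 over 7.66 to 14.4, each lowest in wild-type replicate 3. The 2 paralogs were listed at near-equal levels, with a ratio of 1.11, 0.942 and 0.899 in wild-type and 1.05 and 1.09 in knockout libraries. Atg16l2 shares exon bases with Fchsd2 on the opposite strand, so its level may include reads of that gene.

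For the 6 enzymes that process and lipidate ATG8 proteins, 5 differences were positive, 3 under median-of-ratios scaling and 2 under quantile normalization, and none passed. Atg7, the E1-like enzyme of both conjugation systems (chromosome 6 at 114643097 to 114860614), was the most abundant, at 30.5, 37.1 and 67.2 FPKM in wild-type libraries, against 45.6 and 32.8 in the knockout. Wild-type replicate 3 was here the highest library, in contrast to its low Atg12, and the difference of -0.13 ± 0.36 became 0.20 without it. Atg4a, one of 4 proteases that trim and recycle ATG8 proteins, was the least abundant, at 4.61, 4.30 and 3.33 against 4.91 and 4.52 FPKM, with overlap. The longest coding Atg4a transcript shares 63.6% of its 50-base stretches with Atg4a-ps, listed at 0.762 to 2.49 FPKM, so reads can be split between them. The other proteases ranged over 8.88 to 10.3 FPKM for Atg4b, 4.92 to 9.17 for Atg4c and 8.02 to 9.78 for Atg4d. The 4 together summed to 30.6, 31.8 and 26.9 FPKM in wild-type libraries, against 32.1 and 32.3 in the knockout. Atg3, the E2-like enzyme that transfers ATG8 to lipid, ranged over 10.8 to 16.9 FPKM. Apart from Atg4d, which was highest in it, and Atg7, wild-type replicate 3 had the lowest value of these genes.

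Of the ATG8 proteins, the tags that line the autophagosome, 4 were measured. A single one had a positive difference (2 with equal sums or quantile normalization), and none passed. Gabarap (chromosome 11 at 69991143 to 69994951) was by far the most abundant, at 434, 348 and 627 FPKM in wild-type libraries, against 376 and 376 in the knockout. The knockout libraries were almost equal and lay between wild-type replicates 2 and 1, with a difference of -0.28 ± 0.30 (SE). Gabarapl1 was nearly level, at 98.5, 99.3 and 101 against 89.6 and 105 FPKM. Gabarapl2, the least abundant, stood at 16.6, 13.9 and 10.8 against 13.7 and 16.3 FPKM. It lies on chromosome 8 with Nrp1, 16.4 Mb away, and shares 12.3% of its 50-base stretches with Gm3724. Map1lc3a, the LC3A gene, was looked at for its spread, at 45.4, 43.2 and 141 against 44.0 and 55.0 FPKM. Wild-type replicate 3 held about 3 times the level of any other wild-type library, and the difference of -0.40 ± 0.51 turned to 0.15 without it. Summed over the 4 genes the family reached 594, 504 and 880 FPKM in wild-type libraries, against 523 and 552 in the knockout. Gabarap made up 73.0%, 69.0% and 71.3% of that sum in wild-type and 71.8% and 68.1% in knockout libraries, a stable share. Map1lc3a made up 7.64%, 8.56% and 16.1% against 8.41% and 9.95%. In 4 of 5 libraries the order was Gabarap, Gabarapl1, Map1lc3a and Gabarapl2, and in wild-type replicate 3 Map1lc3a stood above Gabarapl1. Map1lc3b is not part of these sums.

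**Figure D3:**
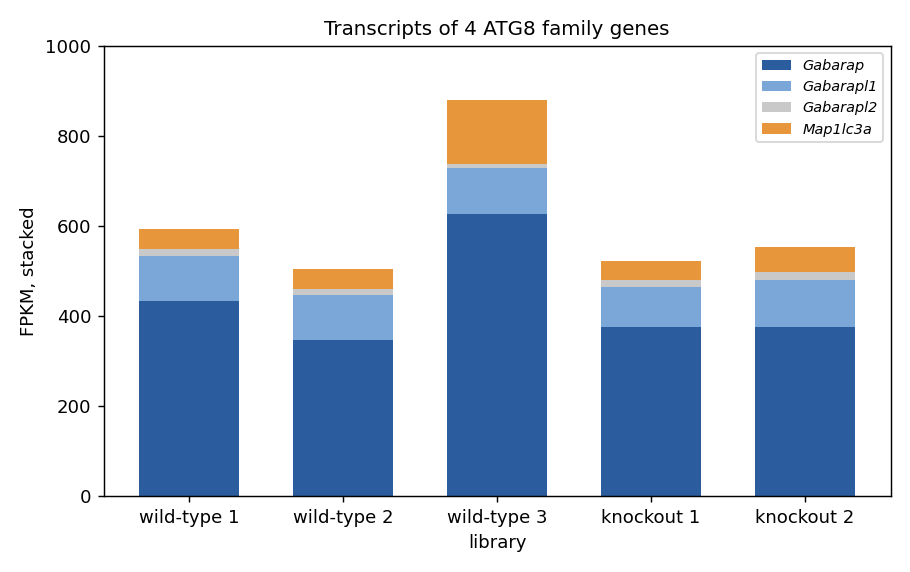
Stacked FPKM of Gabarap, Gabarapl1, Gabarapl2 and Map1lc3a in each of the 5 libraries. Gabarap makes up 68.1% to 73.0% of each bar, and the bar of wild-type replicate 3, 880 FPKM, is the tallest, with a Map1lc3a segment of 141 FPKM.

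Of the 5 cargo receptors 4 had positive differences, 1 under median-of-ratios scaling and 5 with equal sums, and none passed. Sqstm1, which encodes p62 (chromosome 11 at 50199366 to 50210827), was the most abundant member of all, at 602, 778 and 938 FPKM in wild-type libraries, against 811 and 752 in the knockout. The knockout values lay within the wild-type range, and the difference was 0.04 ± 0.28 (SE). It made up 84.1%, 89.7% and 92.0% of the receptors' summed FPKM in wild-type libraries, against 87.9% and 88.3% in the knockout. Optn, a receptor for damaged mitochondria and bacteria, was the least abundant, at 6.87, 7.44 and 9.26 against 7.15 and 7.81 FPKM, with overlap. Nbr1, a p62 relative that acts on protein aggregates, stood at 45.7, 31.7 and 30.2 against 48.2 and 39.2 FPKM. It was the one member in a displaced row of wild-type replicate 3, where its row as deposited read 0, and its difference was 0.29 ± 0.25 after realignment and 1.95 as deposited. Tax1bp1, a receptor for ubiquitinated cargo, ranged over 26.6 to 39.5 FPKM and Calcoco1, a receptor for endoplasmic reticulum and Golgi, over 15.8 to 21.7. Stx17, the SNARE protein of fusion with the lysosome (chromosome 4 at 48124915 to 48186507), stood at 5.51, 5.79 and 3.73 against 3.91 and 5.06 FPKM. The groups overlapped through wild-type replicate 3, and without that library both knockout values were below both wild-type values, as for 15.2% of all genes, with a difference of -0.29.

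Wild-type replicate 3 departed from the other libraries in most members. Its value lay outside the range of the other 4 in 34 of 37 members (91.9%, against 75.6% of all tested genes), below it in 24 and above it in 10 (54.2% and 21.4% of all tested genes). The exceptions were Uvrag, Atg9a and Gabarapl1. Its median deviation from the mean of the other 4 was -0.35 on the log2(FPKM + 1) scale over the members and -0.30 over all tested genes. The median absolute deviation over the members was 0.42 in this library and 0.11 to 0.17 in the others. Over all tested genes it was larger, at 0.48 in this library and 0.18 to 0.20 in the others. The library was low for Atg12, Vmp1, Rb1cc1, Atg2b and Wipi2 and high for Map1lc3a, Atg7 and Gabarap. It also had the highest mast cell marker sum and the lowest wild-type mesothelial and fibroblast sum, given above, and their part in these values was not tested.

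**Figure D4:**
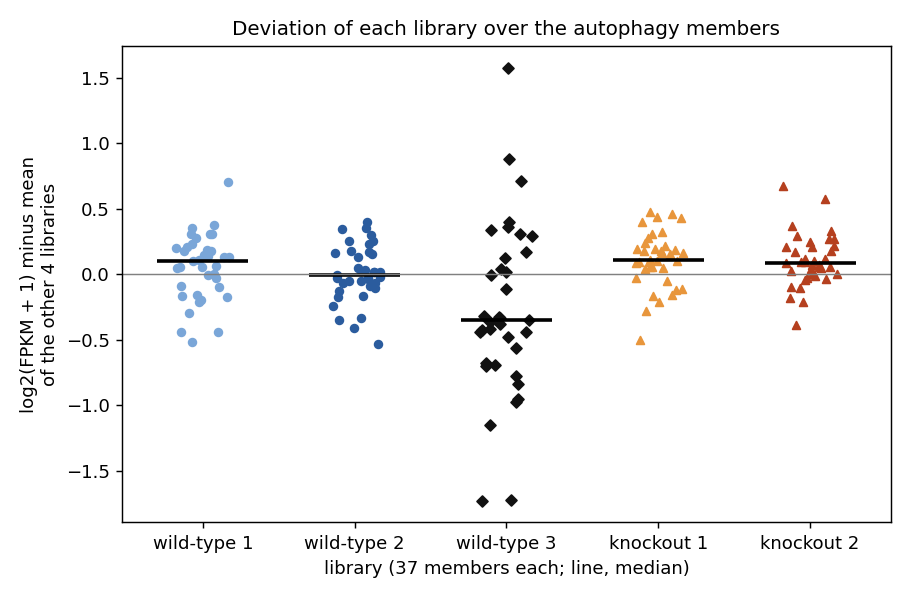
Deviation of each library from the mean of the other 4 in log2(FPKM + 1), 1 point per autophagy member (37 per library), with a black line at the median. Points of wild-type replicate 3 spread more widely than those of the other libraries and their median is -0.35, while the other medians lie between -0.00 and 0.11.

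A wider list of 62 genes around the core machinery, with upstream kinases and their brakes, transcription factors, PI3-kinase regulators, fusion proteins and organelle receptors, was read from the same comparison. Of 61 found, 58 were tested, 0 passed in either direction, and 1 (1.72%) had an unadjusted p under 0.05, against 1.82% of all tested genes. With wild-type replicate 3 left out these were 4 of 58 (6.9%), namely Deptor, Mtor, Park2 and Wdfy3, against 4.27% of all genes, and again 0 passed. In 12 of 58 both knockout libraries were above all wild-type libraries (20.7%, against 13.9% of all genes) and in 1, Tex264, both were below (1.72% against 6.95%). In the other 4 libraries alone the knockout was above in 15 (25.9% against 17.2%) and below in 12 (20.7% against 15.2%). Positive differences numbered 39 of 58 (67.2%, against 63.9% of all genes), and 32 of 58 (55.2% against 53.4%) without that library. The list's median lay at -0.02 relative to all genes. Of the 16 tested upstream kinases and brakes 14 had positive differences, and 9 did without wild-type replicate 3. Both knockout libraries were above in 5 of them (31.2%, against 13.9% of all genes), namely Mtor, Deptor, Prkaa1, Tsc1 and Sesn2, and below in 0. Leaving out wild-type replicate 3, they were above in 7 (43.8%, against 17.2% of all genes) and below in 5 (31.2% against 15.2%). The 5 below were Akt1s1, Ddit4, Prkab1, Prkag2 and Sesn1. Wdfy3, a large scaffold protein for aggregate clearance, had the smallest p, at 9.33, 11.1 and 5.14 against 16.0 and 13.6 FPKM, with a difference of 0.78 ± 0.33 (SE) and 0.49 without wild-type replicate 3. Its unadjusted p in limma was 0.0491 and its adjusted p 0.927. Mtor, the kinase that holds ULK1 in check, stood at 7.74, 6.95 and 10.3 against 10.9 and 11.6 FPKM. Its row in wild-type replicate 3 was displaced, and the value given for that library is the one after realignment. Deptor, an mTOR inhibitor, stood at 2.60, 2.75 and 2.08 against 3.66 and 3.79 FPKM. Both knockout libraries were above all wild-type libraries for both genes, with differences of 0.41 ± 0.24 and 0.45 ± 0.22, which were 0.56 and 0.36 without wild-type replicate 3 and did not pass in either fit. Ncoa4, the ferritin receptor, stood at 19.0, 13.4 and 17.8 against 22.2 and 22.6 FPKM. Tollip, a ubiquitin-binding adaptor, stood at 22.9, 27.4 and 14.3 against 28.5 and 31.1 FPKM. Epg5, a tether for lysosomal fusion, stood at 2.82, 2.47 and 1.01 against 3.45 and 3.05 FPKM and, like Ncoa4 and Tollip, was above in both knockout libraries. The transcription factor genes Tfeb and Tfe3, named after their values were seen, overlapped between the groups. Tfeb stood at 26.0, 28.8 and 37.5 against 30.2 and 24.1 FPKM and Tfe3 at 100.5, 119.9 and 148 against 120.3 and 110.1.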

How the data were processed

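For each gene the authors deposited FPKM, according to the file headers. Messenger RNA was sequenced on an Ion Torrent instrument, per the labels' protocols, and processed with Torrent Suite 4.4 and the Whole Transcriptome Analysis Plugin 4.2-r7, with TopHat2 and Bowtie2 alignment to mm10 and FPKM from Cufflinks. Such estimates divide reads among similar transcripts. Another 17 value columns, computed from these FPKM, were left aside. The smallest positive value was 6.79e-317 FPKM, so values are not whole multiples of a read and sequencing depth is unknown.

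In wild-type replicate 3, 2144 rows in 73 runs followed a gene order that counts hyphens and were put back. In 722 displaced expressed rows Pearson's r across genes with the mean of the other libraries went from 0.171 to 0.916, against 0.944 in other rows. Even so, Fth1, among other genes, stayed listed at 0 in wild-type replicate 3, against 19243 to 25557 FPKM in the other libraries. The cause was not tested. Rows named by a number (27) or differing in case alone (50) were dropped, and duplicate symbols were summed. Genes with at least 1 FPKM in at least 2 libraries were tested on log2(FPKM + 1) with limma 3.58.1 (R 4.3.3), genotype as the single term, with a mean-variance trend, two-sided, with Benjamini-Hochberg adjustment over all 12214 genes and a threshold of 0.05. Differences on this scale understate changes of low genes. The test was checked on simulated data with equal spread in all libraries and changes larger than the difference of any member. That check does not tell how often changes as small as those of the members would be found.

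Library values are given for members whose groups do not overlap, for the most and least abundant member of each role and for absolute differences of at least 0.5, and for the 6 genes of smallest p in the wider list. Map1lc3a, Nbr1, Atg2a, Gabarapl1, 9430023L20Rik, Tfeb and Tfe3 were added after their values were seen. The members and lists were chosen with earlier results of these data known. The labels do not state whether each library had its own animal, and the p-values reflect no more than the spread between these 5 libraries, which may be technical. Alternatives covered the pseudocount, filter, scaling, library weights, row order, each replicate left out and a replicate block. Coordinates and exon overlaps are from GENCODE M21 (GRCm38, the same assembly as mm10), and promoters from RefSeq.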

Additional observations from a re-analysis of the deposited data

How the results depend on the processing

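The count of autophagy members called, 0 in each direction, and of members with an unadjusted p under 0.05, also 0, held under all 15 alternatives, and the lowest adjusted p of any of the 47 genes examined was 0.388. The members whose groups do not overlap (7) numbered 4 under median-of-ratios scaling (10.8% of members, 21.5% of all genes) and 9 to 15 when 1 library was left out (24.3% to 40.5% of members, 32.4% to 43.6% of all genes). The members' median relative to all genes (0.06) was 0.15 without a filter, 0.030 with library weights and 0.037 to 0.11 when 1 library was left out. Of all genes, 5 were called higher, against 3 with a pseudocount of 0.1, 1 without a filter, 1 with a filter at 5 FPKM, 12 with library weights and 2 in the order as deposited. The number called lower, 2, was 0 without a filter, 1 with a filter at 5 FPKM, 9 with library weights and 1 in the order as deposited. Leaving out 1 library gave 0 to 7 higher and 0 to 7 lower, with 0 in both directions without either knockout library and 7 in both without wild-type replicate 2. With library weights Nrp1 passed, at -1.43 (limma adjusted p = 0.023). Replicate numbers 1 and 2 occur in both groups, but nothing in the labels says that they pair the samples, and the deviations of same-numbered libraries had a correlation of -0.040 across genes. A fit with the replicate number as a block, which uses 2 libraries a group, called 3 genes higher and 1 lower and no member. It leaves out wild-type replicate 3, and a balanced block does not alter a difference. Its differences are therefore the same as those without wild-type replicate 3 and no block. These differences, none of them past the test, changed sign without that library, with or without the block: Atg14 -0.0059, Atg7 0.20, Becn1 0.065, Gabarapl2 -0.021, Optn 0.055, Vmp1 -0.15, Wipi1 0.056, Atg16l1 -0.00069, Atg16l2 -0.058, Atg4b -0.037, Map1lc3a 0.15, Calcoco1 -0.017, Tax1bp1 -0.027, Tfe3 0.067. Other sign changes were, with libraries rescaled to equal sums, Becn1 0.023, Optn 0.018, Gabarapl1 0.046, Tfe3 0.0066; with library weights, Atg5 -0.021, Atg7 0.23, Becn1 0.037, Gabarapl2 -0.065, Optn 0.068, Vmp1 -0.16, Atg16l1 -0.0091, Atg16l2 -0.018, Atg4b -0.065, Map1lc3a 0.071, Calcoco1 -0.049, Tax1bp1 -0.092, Tfe3 0.11; under median-of-ratios scaling, Sqstm1 -0.085, Ambra1 -0.075, Atg2a -0.051, Atg4b -0.11, Atg4d -0.099, Calcoco1 -0.021, Tax1bp1 -0.017; under quantile normalization, Atg4a -0.0012, Ambra1 -0.061, Atg4b -0.12, Atg4d -0.11, Gabarapl1 0.0060. When 1 library was left out, the lowest and highest values were -0.061 to 0.14 for Ambra1, -0.0059 to 0.34 for Atg14, -0.00069 to 0.53 for Atg16l1, -0.058 to 0.36 for Atg16l2, -0.012 to 0.20 for Atg2a, -0.037 to 0.063 for Atg4b, -0.060 to 0.069 for Atg4d, -0.36 to 0.20 for Atg7, -0.17 to 0.065 for Becn1, -0.017 to 0.20 for Calcoco1, -0.15 to 0.079 for Gabarapl1, -0.021 to 0.27 for Gabarapl2, -0.70 to 0.15 for Map1lc3a, -0.14 to 0.055 for Optn, -0.13 to 0.19 for Sqstm1, -0.29 to 0.030 for Stx17, -0.027 to 0.25 for Tax1bp1, -0.21 to 0.067 for Tfe3, -0.15 to 0.82 for Vmp1, -0.27 to 0.056 for Wipi1. No gene in these lists passed in any fit, and the causes were not tested. Depth is unknown, so the counting error of a single value cannot be given.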
